A study of Mus musculus with 2 samples.

Results

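The secreted side of TGF-β signaling was examined in primary fibro-adipogenic progenitors (FAPs), the mesenchymal cells of skeletal muscle that can become fibroblasts or adipocytes. The genes are 10 of the 26082 in the deposited tables and were chosen by name: the TGF-β isoforms Tgfb1, Tgfb2 and Tgfb3, the activin and inhibin β chains Inhba and Inhbb, Bmp1 and Bmp4, and the antagonists or follistatin-like proteins Grem1, Fst and Fstl1. RNA was sequenced from mouse FAPs of WT genotype, in 1 library transfected with plasmids for TGFBR3 overexpression (here the OE-labelled library) and 1 transfected with the vector (the vector-labelled library). Both cultures were under adipogenic differentiation in medium with insulin, dexamethasone and IBMX. The paper describes FAPs sorted from digested hind limb muscle. How many animals were pooled and the day of harvest of these cultures are not given in the sources used here. A single library stands for each condition, so that nothing measures the spread between cultures and p-values are not given.

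TGF-β superfamily ligands are secreted dimers that bind pairs of serine/threonine kinase receptors and signal through SMAD proteins. TGF-β isoforms and activins act mainly through SMAD2 and SMAD3, and BMPs through SMAD1, SMAD5 and SMAD9. TGF-β is secreted in a latent form that is held in the extracellular matrix, and soluble antagonists such as follistatin and gremlin capture activins or BMPs before they reach a receptor. TGFBR3, or betaglycan, is a coreceptor known for presenting TGF-β2 and for binding inhibin. In FAPs, TGF-β is known for driving fibrogenic gene expression and BMPs for favoring adipogenesis.

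Levels are given as FPKM, the read count scaled by gene length and library total. Differences are log2 ratios of (FPKM + 1), OE-labelled over vector-labelled, which understates the differences of low genes, and a 2-fold difference is a log2 ratio of 1 or −1. The 95% intervals of log2 ratios are exact Clopper-Pearson intervals on the counts. Those of the fold in a ratio of 2 genes are exact conditional intervals of the odds ratio of their counts. Both cover counting error only. The deposited counts summed to 62321027 and 83779203, respectively. Tgfbr3 itself was at FPKM 36.9 and 35.1, with a log2 ratio of 0.07 (95% interval 0.04 to 0.10), so that the gene meant to be overexpressed was hardly higher, and was lower (−0.06) when centred as below. Which species' sequence the plasmid carried, and thus whether its transcripts are counted under mouse Tgfbr3, is not given in the sources used here. Directions are therefore those of the labels. Over the 10626 genes that reached an FPKM of 1 in each library, the ratio had a median of 0.13, which was subtracted to give centred values. Genes of GC-poor exons had higher ratios: among 20 bins of GC content, the bin medians ran from 0.45 (GC-poorest) to −0.24 (GC-richest). Values with this trend removed stand beside the results. Of 12 genes listed as FAP markers, 11 and 10 had an FPKM of at least 1, among them Pdgfra at 30.5 and 32.6. Lum was at 0.27 and 0.03. The counts of 11 and 10 differ by Tcf4 (1.08 and 0.88), whose place as a FAP marker was not tested. Of 11 macrophage markers, Adgre1, Tyrobp and Fcer1g had 0 counts in both libraries, and 2 had an FPKM of at least 1, Lyz2 at 12.2 and 16.4 and Cd68 at 2.94 and 2.04. The summed FPKM of the macrophage markers was 16 and 19. The summed FPKM of 10 adipocyte markers was 58.4 and 97.5, and the part of this difference in the results was not tested. Cfd, the most abundant of these markers in each library, was at 15.33 and 39.04, and Fabp4 was at 12.6 and 13.94. Only Pparg (2.19 and 1.61) and Lpl (10.02 and 8.86) were higher in the OE-labelled library. The sum thus does not stand for every marker. In bulk RNA, fewer cells of a type and less RNA per cell cannot be told apart.

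Grem1 had the largest log2 ratio of (FPKM + 1) among the members, whereas Bmp4 was ahead in CPM with nothing added, and Fst was farther from 0 than Grem1 with the GC trend removed, TMM factors or DESeq2 size factors. Grem1 encodes gremlin 1, a secreted antagonist that binds BMP2 and BMP4. The FPKM of Grem1 was 49.1 in the OE-labelled library and 20.9 in the vector-labelled library, from 13814 and 7991 counts. The log2 ratio was 1.20 (95% interval 1.16 to 1.24), and a larger one was found for 2.00% of the 11213 genes whose FPKM averaged 1 or more (here the expressed genes). Grem1 was the only member at least 2-fold higher, 1 of 10 and 1 of the 8 among the expressed genes, where 3.14% of these genes were. Tgfb2 and Bmp4 fall below that level. No member was 2-fold lower, where 1.03% were (4.17% in either direction). Past 4-fold there was no member, and 0.687% of genes were higher and 0.0535% lower. Centred, Grem1 stayed past 2-fold at 1.07, as did 2.39% of genes, with 1.63% 2-fold lower. With the GC trend removed it was 0.88, and with DESeq2 size factors 0.98, so that its place past 2-fold depended on the scaling while its direction did not.

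Fst and Fstl1 were lower, while their expressed relative Fstl3, named after its values were seen, was at FPKM 35.5 and 33.4 with a log2 ratio of 0.09. Fst encodes follistatin, which binds activins almost irreversibly. Its FPKM was 3.52 against 6.58, from 1098 and 2792 counts, with a log2 ratio of −0.75 (95% interval −0.83 to −0.66). A smaller ratio was found for 2.52% of genes. Without the added 1, the log2 ratio of Fst in CPM (counts scaled to a common total) was −0.92 (95% interval −1.02 to −0.82), where 6.09% of genes were 2-fold higher and 1.92% lower. Fst passed 2-fold with the GC trend removed (−1.06, where 1.17% of genes were 2-fold lower and 2.13% higher), TMM factors (−1.12) or DESeq2 size factors (−1.15).

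Fstl1, a secreted glycoprotein of the SPARC family with a follistatin-like domain, was by far the most abundant member. It stood at FPKM 269.6 and 416, above 98.7% and 99.1% of the expressed genes. Its counts were 89877 and 188897, and the log2 ratio was −0.62 (95% interval −0.64 to −0.61). The centred value was −0.75 and the value with the GC trend removed −0.78. Fst and Fstl1 were the members at least 1.5-fold lower, 2 of 10 and 2 of the 8 expressed, where 4.91% of expressed genes were. Grem1 was the member at least 1.5-fold higher, where 13.3% were (18.2% in either direction). Within the antagonists, Grem1 made up 15.2% of the summed FPKM of Grem1, Fst and Fstl1 in the OE-labelled library and 4.70% in the other, while Fstl1 made up 83.7% and 93.8%.

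**Figure D1:**
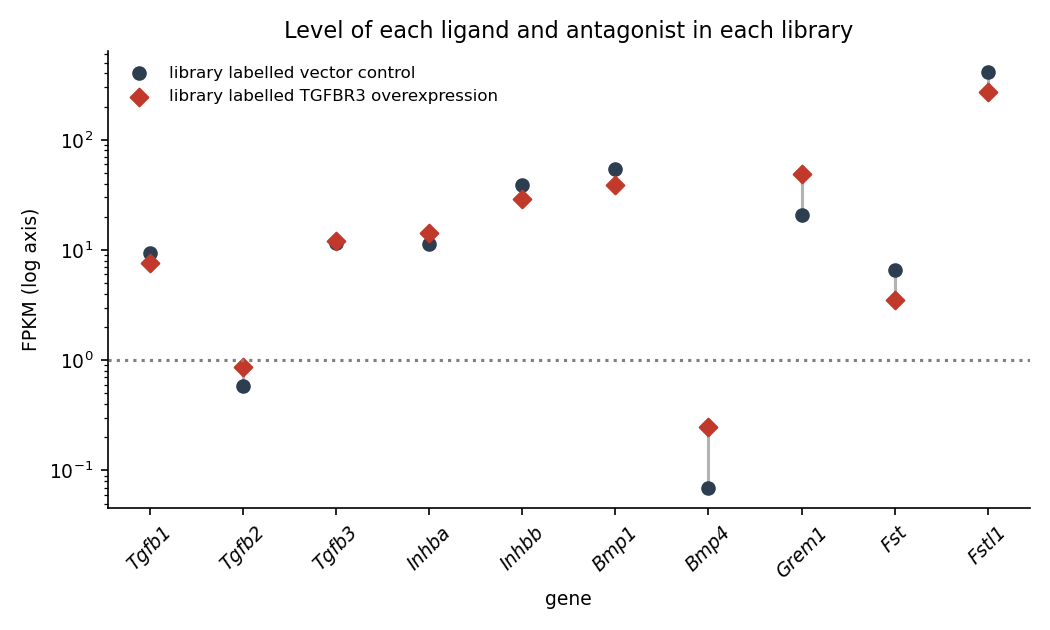
FPKM of each of the 10 genes on a log axis, with a diamond for the OE-labelled library and a circle for the vector-labelled library; each point is 1 library and the dotted line is an FPKM of 1. Levels span from 0.07 for Bmp4 to 416 for Fstl1, and Grem1 is at 49.1 against 20.9 while Fst and Fstl1 lie lower in the OE label.

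The TGF-β isoforms summed to FPKM 20.5 and 21.4. Tgfb1, the isoform best known for driving fibrosis, had FPKM values of 7.59 and 9.32 from 2596 and 4346 counts, and a log2 ratio of −0.26 (95% interval −0.33 to −0.20). It was negative under all 11 scalings tried, from −0.55 to −0.17. Tgfb3 was the most abundant isoform in each library, at FPKM 12.1 and 11.5 from 2773 and 3592 counts. Its log2 ratio was 0.07 (95% interval 0.00 to 0.13), close to that of the median gene, and its sign turned when centred (−0.06), with TMM (−0.15) or DESeq2 size factors (−0.18), and with the trend over exon length removed (−0.06).

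Tgfb2, the isoform that most depends on betaglycan for receptor binding, was scarce. It had 338 and 314 counts, FPKM values of 0.86 and 0.58, for a log2 ratio of 0.24 (95% interval 0.14 to 0.32). In CPM with nothing added, the log2 ratio was 0.53 (95% interval 0.31 to 0.76), and 0.33 with TMM factors, and on the main scale it was 0.00 with the GC trend removed and 0.03 with the trend over exon length removed. Of the summed isoform FPKM, Tgfb1 made up 37.0% and 43.6%, Tgfb2 4.19% and 2.71%, and Tgfb3 58.8% and 53.7%.

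In the fold by which a ratio of 2 genes differs between the libraries, library scaling and division by gene length cancel. A trend of the log2 ratios over GC content or exon length does not cancel. Over 20 bins of exon length, the medians ranged from −0.07 to 0.33, and that trend was not removed from these folds. The Tgfb1 to Tgfb3 ratio in the OE-labelled library was 0.774 times that in the other (95% interval 0.721 to 0.830), a log2 fold of −0.37. With the GC trend removed, the log2 fold was −0.28. The Tgfb1 to Tgfb2 ratio was 0.555 times that in the vector label (95% interval 0.471 to 0.654). Its log2 fold of −0.85 shrank to −0.52 with the GC trend removed.

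The β chains of activin and inhibin differed in opposite directions. Inhba encodes the βA chain, whose homodimer is activin A. Its FPKM was 14.2 and 11.3, from 6170 and 6680 counts, with a log2 ratio of 0.31 (95% interval 0.26 to 0.35). Inhbb encodes the βB chain of activin B and was the more abundant chain in both libraries, at FPKM 28.8 and 38.8 from 8315 and 15256 counts, with a log2 ratio of −0.42 (95% interval −0.46 to −0.38). The βA share of both chains was 33.1% and 22.6%, and the Inhba to Inhbb ratio was 1.69 times higher in the OE label (95% interval 1.62 to 1.77).

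These chains also lie far apart in base composition. The exons of Inhba were 41.4% GC and those of Inhbb 60.9% GC, at opposite ends of the GC trend described above. With that trend removed, Inhba was at −0.13 and Inhbb at −0.17, and the log2 fold of their ratio fell from 0.76 to 0.08. Under the other 10 scalings, Inhba stayed above 0 and Inhbb below.

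The ratio of the βA chain to follistatin compares genes of closer GC content (41.4% and 45.2%). It sets 1 chain against 1 antagonist and does not measure the whole balance. Inhba and Inhbb together summed to FPKM 43.0 in the OE-labelled library and 50.1 in the vector-labelled library. Fstl3, the relative of Fst, was more abundant than Fst, at FPKM 35.5 and 33.4. By FPKM, the Inhba to Fst ratio was 4.04 in the OE-labelled library and 1.72 in the vector-labelled library. It was 2.35 times higher in the former (95% interval 2.17 to 2.54), a log2 fold of 1.23, which stayed past 2-fold at 1.11 with the GC trend removed. In CPM, the log2 ratio of Fst was −0.92 and that of Inhba 0.31. The Inhba to Fstl1 ratio was 1.94 times higher (95% interval 1.87 to 2.01).

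**Figure D2:**
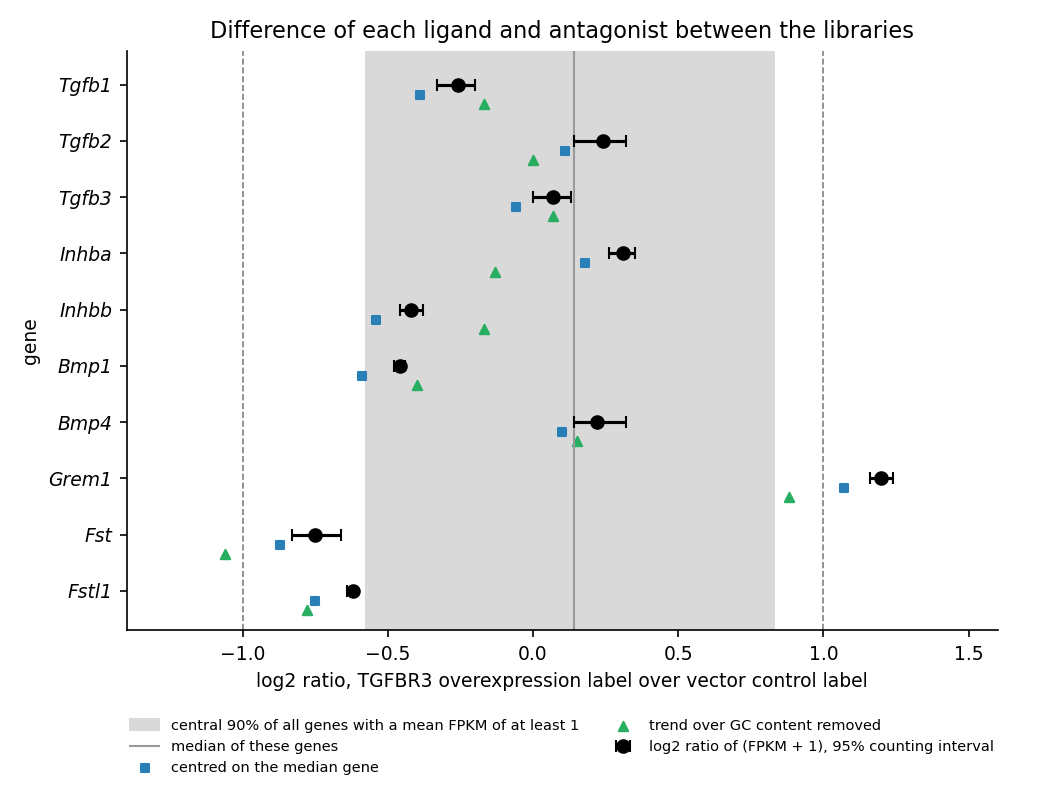
Log2 ratio of (FPKM + 1) for each gene, OE-labelled library over vector-labelled library, with 95% counting intervals (black), the centred value (blue square) and the value with the GC trend removed (green triangle). The grey band holds the central 90% of genes, from −0.58 to 0.83, the solid line is their median and dashed lines mark 2-fold; Grem1 lies above the band and Fst and Fstl1 below it, while Inhba and Inhbb lie together with the GC trend removed.

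Bmp1, despite its name, encodes a secreted metalloprotease that trims procollagens and cleaves the BMP antagonist chordin. It was the second most abundant member in the vector-labelled library, at FPKM 54.2, and was at 39.1 in the OE-labelled library, from 44444 and 23552 counts. The log2 ratio was −0.46 (95% interval −0.48 to −0.44), and 7.99% of genes had a smaller one. It remained negative under all 11 scalings, from −0.73 to −0.40.

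Bmp4, the BMP ligand among the members and a signal known to commit mesenchymal cells to the adipocyte lineage, was barely expressed. It had 40 counts in the OE-labelled library and 14 in the other, at FPKM 0.25 and 0.07, and its log2 ratio of (FPKM + 1) was 0.22 (95% interval 0.14 to 0.32). In CPM with nothing added, the log2 ratio was 1.94 (95% interval 1.03 to 2.93), so that the size of the difference depends on how a level this low is treated. The antisense gene Gm15217 overlaps 89 exonic bases of Bmp4, and the strand setting of the counting is not given in the sources used here. Grem1 was 196 times as abundant as Bmp4 by FPKM in the OE label and 298 times in the vector label. Bmp4 does not stand for all BMP ligands. Bmp6, which is no member, was at FPKM 6.74 and 7.76 with a log2 ratio of −0.18. The Bmp4 to Grem1 ratio had a fold of 1.65 (95% interval 0.88 to 3.29), an interval that spans 1, and a difference in this ratio could not be resolved at 40 and 14 counts. On the scale of (FPKM + 1) its log2 fold was −0.97, against 0.72 from counts, so that its direction depended on the added 1.

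**Figure D3:**
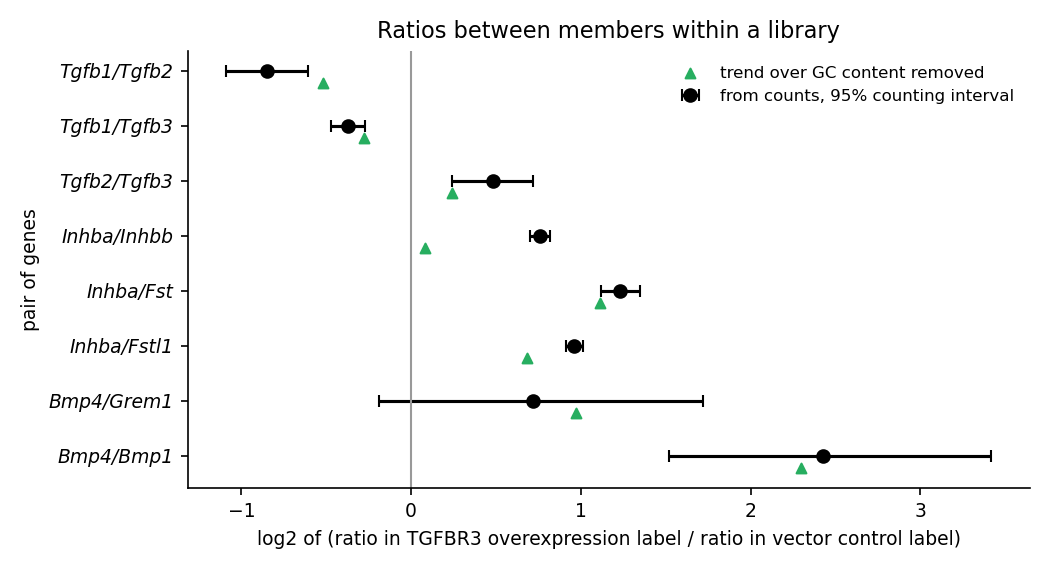
Log2 of the ratio between 2 genes in the OE-labelled library divided by the same ratio in the vector-labelled library, for 8 pairs, with 95% counting intervals from counts and the value with the GC trend removed (triangles). The Inhba to Fst and Bmp4 to Bmp1 ratios are past 2-fold both ways, the latter at 2.43 and 2.30, the Inhba to Inhbb ratio falls from 0.76 to 0.08, and the pairs with Bmp4 have the widest intervals.

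The 10 genes lie on 7 chromosomes of mm10. Tgfb2 (chromosome 1, 186622792 to 186705989, ENSMUSG00000039239) and Inhbb (119415465 to 119422248, ENSMUSG00000037035) share chromosome 1. Grem1 (ENSMUSG00000074934) lies on chromosome 2 from 113746164 to 113758646, on the minus strand, with 2 exons in its longest coding transcript. Tgfb1 (ENSMUSG00000002603) lies on chromosome 7 from 25687002 to 25705077, and Tgfb3 (ENSMUSG00000021253) on chromosome 12 from 86056745 to 86079041. Chromosome 13 holds Inhba (16011851 to 16031621, ENSMUSG00000041324) and Fst (114452290 to 114458951, ENSMUSG00000021765). Chromosome 14 holds Bmp1 (70474558 to 70520234, ENSMUSG00000022098) and Bmp4 (46383520 to 46390669, ENSMUSG00000021835), and Fstl1 (ENSMUSG00000022816) lies on chromosome 16 from 37776873 to 37836514. From 0.00% to 9.96% of the 31-base words of the members also occur in transcripts of other genes, with the highest share in Tgfb3. Exons of antisense genes overlap those of Tgfb3 over 420 bases, those of Tgfb2 over 124 bases and those of Fst over 115 bases.

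Promoters of 7 members, all but Tgfb3, Bmp1 and Fst, were matched by symbol in the RefSeq sequences of GRCm38.p6, and the 250 bases before the start site were searched on both strands. The motif CCAAT was found in Grem1 and Tgfb2 and in 34.5% of 27025 promoters. TATAAA was found in Tgfb2 and Inhba and in 3504 of these promoters. GGGCGG, the GC box, was found in Tgfb1, Inhbb, Bmp4, Grem1 and Fstl1 and in 32.9% of promoters, the CAGA box CAGACA in Tgfb2 and in 17.1%, and the palindromic SMAD box GTCTAGAC in no member and in 0.174% of promoters. The windows below show, for the members with the largest differences and for the TATA-containing ligands, the motif in capitals within 30 bases, on the strand of the gene. The Fstl1 window, 1 of 2 matches there, lies before the RefSeq start but inside the GENCODE gene. A match is a description of these letters and is no evidence of a site in use.
Grem1, CCAAT, chr2:113758700-113758729, minus strand: gacggcgcctgaCCAATggagagacgcagt
Grem1, GC box, chr2:113758738-113758767, minus strand: taccgggaaaggGGGCGGatagcgggtccc
Fstl1, GC box, chr16:37777021-37777050, plus strand: aggggtcttaagGGGCGGcgagcccaggtc
Tgfb2, TATAAA, chr1:186706003-186706032, minus strand: ttggggagcacaTATAAAactctgctccgg
Inhba, TATAAA, chr13:16011748-16011777, plus strand: acaacttctaaaTATAAAtctctggcacat

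Grem1 and Fstl1, which lay on opposite sides of the median gene, both carry the GC box within their proximal promoter. The upstream sequence was 72.0% GC in Grem1 and 68.0% in Fstl1, against 43.2% in Inhba and a median of 52.0% over all promoters.

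Of 27 other ligands, 22 were in the tables and 7 were expressed. Of these 7, 2 were at least 2-fold higher and none was 2-fold lower, where 3.14% and 1.03% of all expressed genes were, and the median log2 ratio was −0.18 against 0.14 over all genes. Gdf15, a distant member of the superfamily that is known as a stress-induced hormone, had FPKM values of 38.0 and 12.4, for a log2 ratio of 1.54 (95% interval 1.47 to 1.61). Inha, which encodes the α chain that pairs with a β chain to form inhibin, was at FPKM 4.62 and 0.98 from 463 and 135 counts, with a log2 ratio of 1.51 (95% interval 1.33 to 1.66). With the GC trend removed, Inha was at 1.75. Gdf6, a BMP-type ligand, had FPKM values of 0.60 and 1.64, for a log2 ratio of −0.72. Inha reached an FPKM of 1 only in the OE-labelled library and Gdf6 only in the vector-labelled library. Each thus counted as expressed only through the library where it was higher. In CPM with nothing added, Gdf6 was past 2-fold lower at −1.47 (95% interval −1.74 to −1.20), and it was so too with TPM, CPM + 1, TMM and DESeq2 size factors. Lefty1, an inhibitor of Nodal signaling, was at FPKM 4.58 and 7.41 with a log2 ratio of −0.59, and 25.7% of its 31-base words occur in transcripts of other genes.

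Of 19 other antagonists and modulators, 10 were expressed, none was 2-fold higher or lower and the median log2 ratio was −0.04. Chrd, which encodes the BMP antagonist chordin that Bmp1 cleaves, was at FPKM 1.12 and 2.67 with a log2 ratio of −0.79 (95% interval −0.87 to −0.70). Htra3, a secreted serine protease, was at FPKM 4.12 and 7.39 with a log2 ratio of −0.71, and Nbl1, a BMP antagonist of the DAN family, at 111 and 178 with −0.68. Twsg1, a BMP-binding protein that works with chordin, was higher at 24.9 and 15.9, with a log2 ratio of 0.62. Without the GC trend, Chrd was at −0.73, Htra3 at −0.62, Nbl1 at −0.43 and Twsg1 at 0.33.

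Of 24 genes that hold, activate or process TGF-β or take part in procollagen processing, 16 were expressed. Of these, 13 had a log2 ratio below 0, where 4115 of the 11213 expressed genes did, and 13 did so too with the GC trend removed, where 5601 of 11207 did. The median was −0.41, and 1 gene was 2-fold lower. That gene was Fbn1, which encodes the fibrillin of the microfibrils that hold latent TGF-β complexes, at FPKM 61.8 and 127.5 with a log2 ratio of −1.03 (95% interval −1.05 to −1.02). Its exons overlap those of the antisense gene Gm9913 over 2442 bases. The latent TGF-β binding protein Ltbp3 was at FPKM 24.2 and 39.8 with a log2 ratio of −0.69, and its relative Ltbp2, which is known to bind fibrillin, at 87.5 and 151 with −0.78. Pcolce2, an enhancer of the procollagen processing that Bmp1 carries out, had FPKM values of 0.76 and 1.93, for a log2 ratio of −0.74. Pcolce2 and Itgb3 (FPKM 0.85 and 1.64), both among the 13 below 0, counted as expressed only through the vector-labelled library.

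Of 12 expressed receptor genes, none was 2-fold higher or lower and the median log2 ratio was 0.11. With the GC trend removed the receptor median was −0.19, with 9 of 12 below 0. Bmpr1a, a type I BMP receptor, was at FPKM 10.2 and 7.09 with a log2 ratio of 0.47, and Tgfbr2, the receptor that binds TGF-β, at 26.4 and 35.6 with −0.42. The coreceptors Eng and Rgma had log2 ratios of 0.39 and −0.37. Without the GC trend, Bmpr1a was at 0.09, Tgfbr2 at −0.56, Eng at 0.49 and Rgma at −0.24. The median over 11 SMAD genes and their regulators was 0.17, and none was 2-fold higher or lower. Skil, a transcriptional corepressor of SMADs, was at FPKM 4.04 and 2.12 with a log2 ratio of 0.69, the inhibitory SMADs Smad7 and Smad6 had 0.49 and −0.32, and the ubiquitin ligase Smurf1 0.30. With the GC trend removed, Skil was at 0.25, Smad7 at 0.59, Smad6 at −0.07 and Smurf1 at 0.36.

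For genes that the ligands are known to induce, the median over 16 TGF-β and activin response genes was −0.25, with 12 of them below 0. After centring, 14 were below 0, where 5459 of the 11213 expressed genes were, and with the GC trend removed 13 were. The genes that were 2-fold lower were Fn1 (fibronectin), at FPKM 577 and 1403 with a log2 ratio of −1.28, and Col3a1 (a fibrillar collagen), at 95.8 and 199 with −1.05. Col1a1 followed at −0.89. Of 7 BMP response genes, none was 2-fold higher or lower, and the median was 0.10, −0.03 when centred and 0.26 with the GC trend removed, against 0.14, 0.01 and 0.00 over all genes. Of the 7, 5 were above 0 and 2 below. Id2 and Id1, transcriptional regulators induced by BMPs, had log2 ratios of 0.54 and 0.34. Smad7 and Smad6, which are also in this list, had 0.49 and −0.32. Without the GC trend, Id2 was at 0.26, Id1 at 0.41, Smad7 at 0.59 and Smad6 at −0.07.

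**Figure D4:**
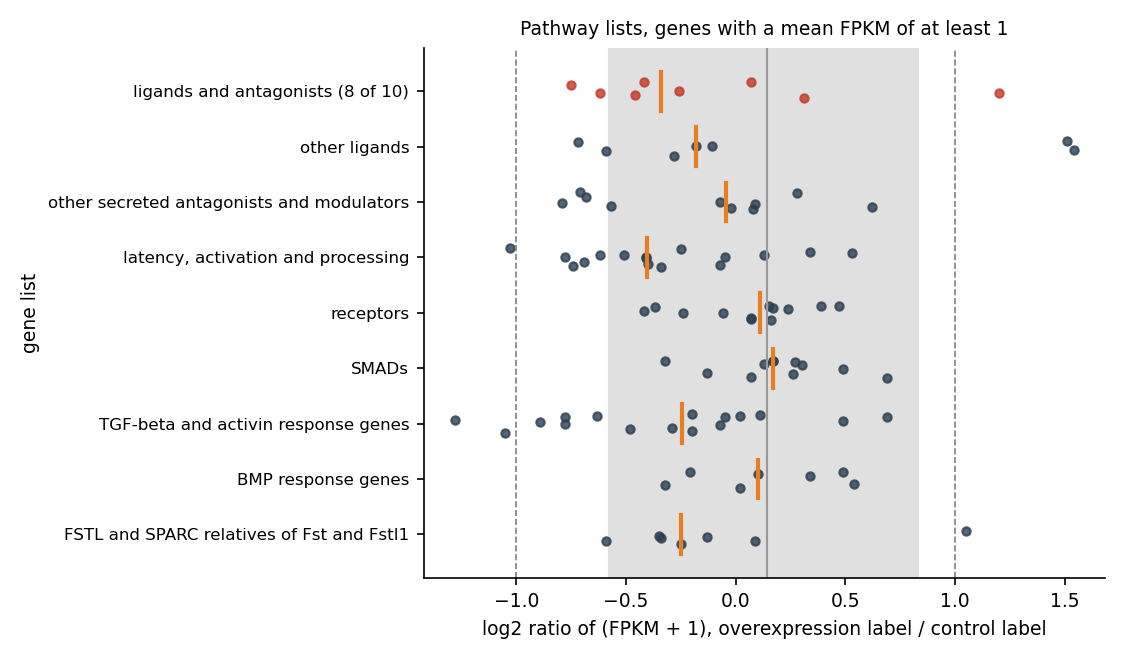
Log2 ratio of (FPKM + 1) of each expressed gene, by list, with the 8 of 10 ligands and antagonists that pass this level in red and an orange bar at each list's median. The grey band holds the central 90% of all genes, the solid line is their median of 0.14 and dashed lines mark 2-fold; Gdf15 and Inha stand apart at the right, Fn1 and Fbn1 at the left, and the receptors and SMADs lie within the band.

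Over the 8 expressed members, which leaves out Tgfb2 and Bmp4, the median log2 ratio was −0.34, with 3 above and 5 below 0, whereas it was 0.14 over all 11213 genes, with 7079 above and 4115 below 0. When centred, 2 members were above and 6 below 0, against 5754 and 5459 of all genes. Over all 10 members it was −0.10. Grem1 was higher, and Fst, Fstl1, Bmp1, Inhbb and Tgfb1 were lower under all 11 scalings, and the sign of Tgfb3 and Inhba depended on the scaling.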

How the data were processed

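The authors deposited, for 1 library per condition, a raw count and an FPKM value, rounded to 2 decimals, for each gene. The submitters' processing notes name cutadapt 1.9, HISAT2 2.2.1, StringTie 2.1.6, DESeq2 and edgeR on mm10, whereas the paper's methods name STAR and FeatureCounts, and the sources used here do not say which made the tables. The counts were used for intervals, ratios between genes and alternative scalings. No count model was run, as none can estimate a spread without replicates. The members, the 8 pathway lists and the markers were chosen with earlier results of these data known. Named genes are the 10 members, Tgfbr3 and genes picked per list. Picked were the 4 largest absolute log2 ratios at a mean FPKM of at least 1 and any past 2-fold. Fstl3, Sparc, Amh, Itgb3, Bmp6, Tcf4 and the adipocyte markers printed by name were named after their values were seen. Some genes of the lists are not reported here. Of the deposited identifiers, 26012 of 26082 were found in GENCODE M21, which gave coordinates, exon lengths and GC content. Trends were removed by subtracting the median of 20 bins. TMM factors came from edgeR 4.0.16 and size factors from DESeq2 1.42.0. The calculations were tested on simulated data. Values of 3 counts or fewer were treated as the floor. Reads may not be independent molecules.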

Additional observations from a re-analysis of the deposited data

How the results depend on the processing

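Every difference rests on 1 library per condition, so the intervals hold none of the spread between cultures, and low members such as Bmp4 are limited by counts. No paired analysis was possible because each condition has 1 library. Leaving out a library was not possible for the same reason. Over 10 alternative scalings, the direction turned for Tgfb3 (4 scalings) and Inhba (−0.13 with the GC trend removed), and Tgfb2 was at 0.00 with that trend removed and 0.03 with the length trend removed. The count of members at least 2-fold higher was 1. It was 2 with a pseudocount of 0.1 or 0.01, with the plain ratio of CPM or with TMM, where Bmp4 joined Grem1. It was 0 with the GC trend removed or at 4-fold, and with DESeq2 size factors the 1 gene was Bmp4 in place of Grem1. The count of members 2-fold lower was 0, but 1 (Fst) with TMM, DESeq2 size factors or the GC trend removed, and 2 at 1.5-fold. The median over members was −0.34, and −0.29 for TPM, −0.47 centred, −0.59 with TMM, −0.62 with DESeq2 size factors, −0.17 with the GC trend removed, −0.46 with the length trend removed and −0.10 over all members. Of other ligands, 2 were 2-fold apart, 3 with either smaller pseudocount, the plain ratio, TPM, CPM + 1, TMM or DESeq2 size factors, where Gdf6 joined as lower, and 4 at 1.5-fold. Of other antagonists, none was 2-fold apart, but 1 was with either smaller pseudocount, the plain ratio, TPM or CPM + 1, 3 with TMM or DESeq2 size factors and 4 at 1.5-fold. Of latency and processing genes, 1 was 2-fold apart, 2 with either smaller pseudocount, the plain ratio, CPM + 1 or the GC or length trend removed, 4 with TMM or DESeq2 size factors and 5 at 1.5-fold. For SMADs, 0 became 1 at 1.5-fold. Of TGF-β and activin response genes, 2 were 2-fold apart, but 1 with TPM, 3 when centred, 5 with TMM or DESeq2 size factors, 4 with the length trend removed and 7 at 1.5-fold. Of the relatives of Fst and Fstl1, 1 was 2-fold apart, 0 when centred, with TMM, DESeq2 size factors or the length trend removed, and 2 at 1.5-fold. With FPKM + 1 the log2 fold was −0.50 for Tgfb1 to Tgfb2, 0.17 for Tgfb2 to Tgfb3, 1.05 for Inhba to Fst, −0.97 for Bmp4 to Grem1, against 0.72 from counts, and 0.69 for Bmp4 to Bmp1, against 2.43 from counts. With the GC trend removed it was −0.52 for Tgfb1 to Tgfb2, 0.08 for Inhba to Inhbb, 1.11 for Inhba to Fst and 0.68 for Inhba to Fstl1. The share of all genes 2-fold higher was 3.14%, and 1.41% with no filter and 3.61% at a mean FPKM of at least 5, and the share 2-fold lower was 1.03%, 0.475% and 1.24%. At 1.5-fold, 13.3% were higher and 4.91% lower. The 2-fold shares were 2.39% and 1.63% centred, 2.13% and 1.17% with the GC trend removed, and 6.09% and 1.92% in plain CPM. Such shares are not given for smaller pseudocounts, TPM, CPM + 1, TMM, DESeq2 size factors or the length trend. Counts under those scalings thus have no background beside them. The causes were not tested.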

Other observations

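Relatives of Fst and Fstl1 that share the follistatin-like or SPARC-type domain were examined as a further group. Of 14 such genes, 7 had a mean FPKM of at least 1, and their median log2 ratio was −0.25, with 5 below 0. Sparc, a collagen-binding matrix protein that was named after its values were seen, was at FPKM 1191 and 1306 with a log2 ratio of −0.13, and Igfbp7, a secreted protein with a follistatin-type module, at 882 and 1329 with −0.59 (95% interval −0.60 to −0.58). Tmeff1, a transmembrane protein with follistatin modules, had a log2 ratio of −0.35 and the matrix protein Smoc2 one of −0.34. Above 0 were Fstl3, at 0.09, and Agrn, which encodes the proteoglycan agrin, at FPKM 29.2 and 13.6, with a log2 ratio of 1.05 (95% interval 1.02 to 1.08). Agrn was short of 2-fold when centred (0.92), with TMM factors (0.88), with DESeq2 size factors (0.85) and with the trend over exon length removed (0.80).

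Amh, the anti-Müllerian hormone of the superfamily, did not reach a mean FPKM of 1 and was named after its values were seen. It had 152 counts in the OE-labelled library and 4 in the vector-labelled library, at FPKM 1.33 and 0.02. In CPM, the log2 ratio was 5.67 (95% interval 4.29 to 7.57). Its exons overlap no other annotated gene.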
